A study of Rattus norvegicus with 8 samples.

Results

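Macrophages are phagocytes that live in the arterial wall, mainly in its outer layer, and that are also formed from blood monocytes entering a damaged vessel. The transcription factor PU.1 sets up the lineage, and signals through the receptor for colony-stimulating factor 1 keep the cells alive. Macrophages clear debris through scavenger receptors, lectins and Fc receptors, sense microbial and tissue danger signals through CD14, and digest what they take up in lysosomes.

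The 10 macrophage identity genes described here were taken by symbol from the 37209 genes of the count table. They are Spi1, Csf1r, Aif1, Adgre1, Cd68, Lyz2, Cd14, Fcgr1a, Mrc1 and Cd163. Of these, 9 were listed under their own symbol, and Adgre1 was listed under its older symbol Emr1. All 10 had enough reads for the test, in which 14359 genes took part. mRNA was sequenced from whole carotid arteries of male Sprague-Dawley rats, with 4 injured arteries (left side, passed with an angioplasty balloon catheter and harvested 2 weeks later) and 4 control arteries (the undamaged right side). No transgene or drug was used, and the ages of the animals were not used here. The control is the other artery of an operated animal, so both groups come from animals that had anesthesia and surgery. The paper describes exposure of the left artery only, so its handling and the balloon injury cannot be told apart. The labels do not tie the replicate numbers of the 2 groups to single animals. Nothing in the labels says how the arteries were trimmed, and p-values measure the spread between these 8 arteries.

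The libraries held 11459632 to 16658089 counts. Smooth muscle markers, which define the artery, summed to 17429 to 50551 CPM (each count as a share of its library, on a common scale and adjusted by TMM factors) in the controls and to 10558 to 16609 CPM after injury. The RNA extraction text names a brain region, whereas the other labels name the carotid artery. Control artery 4 stood apart from the other controls. Its correlations of log2(CPM + 1) with them across genes were 0.843 to 0.859, against 0.984 to 0.985 among controls 1 to 3. It held 17429 CPM of the smooth muscle markers, against 37309 to 50551 CPM in controls 1 to 3. Its fibroblast markers summed to 10400 CPM, against 27189 to 30809 CPM in controls 1 to 3. Sympathetic neuron markers summed to 9235 CPM in control artery 4 and to 2273 CPM in injured artery 3. Markers of brain neurons and glia summed to 2365 and 596 CPM in these libraries and to 5.91 to 80.5 CPM in the others. Which cells held these mRNAs was not tested. Without control artery 4, the log2 fold changes of the 10 members ran from 0.06 for Cd163 to 4.49 for Lyz2, and the same 9 members were called.

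In the injured arteries, 9 of the 10 macrophage identity genes rose and none fell. Across all genes tested, 8.27% were called higher and 2.63% lower, 10.9% together. A gene was called when its false discovery rate in edgeR's quasi-likelihood test, adjusted over all 14359 genes, was under 0.05 and its fold change above 2. The median log2 fold change of the members was 2.54, whereas the median of all genes tested was -0.06. Every injured artery lay above every control artery for 9 members, and 14.2% of all genes tested showed this. The rise was far from uniform, from 20.9-fold for Lyz2 and 16.9-fold for Cd68 to 2.10-fold for Mrc1, and Cd163 overlapped between the groups. In whole arteries, more macrophages and more mRNA per macrophage cannot be told apart.

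**Figure D1:**
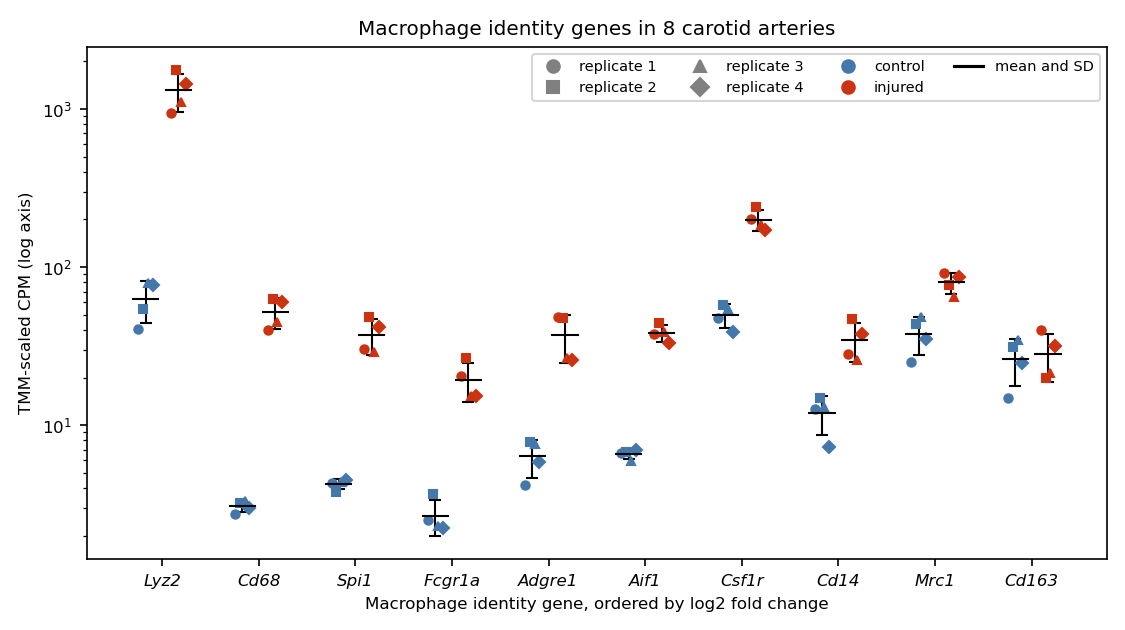
TMM-scaled CPM (log axis) of the 10 macrophage identity genes in the 4 control (blue) and 4 injured (red) arteries, ordered by log2 fold change; each point is an artery, its shape gives the replicate number, and the horizontal and vertical black lines give the mean and SD of a group. The groups are separate for 9 genes, and Cd163 runs from 14.8 to 34.4 CPM in the controls and from 19.9 to 39.8 CPM after injury.

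PU.1 and related Ets factors bind purine-rich DNA around a GGAA core, and PU.1 sites commonly carry the letters GAGGAA. To place the members beside this lineage factor, the RefSeq promoters of the GRCr8 assembly (300 bases around each gene start, most of them before it) were searched for GAGGAA on both strands. Promoters were matched for 7 of the 10 members, leaving Fcgr1a, Spi1 and Aif1. The letters occurred in 6 of the 7 promoters, all but that of Cd163, and in 27.6% of all 33469 promoters. The longer form GAGGAAGT, which contains the shorter one, occurred in 0 of the 7 and in 2.42% of all promoters. A match in such a window is a description of letters and does not show binding. The windows below show 1 match per promoter, the nearest before the gene start, with GAGGAA (or TTCCTC, its form on the other strand) in capitals.
Lyz2, chr7:54798037-54798072, minus strand: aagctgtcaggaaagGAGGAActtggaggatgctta
Cd68, chr10:54882448-54882483, minus strand: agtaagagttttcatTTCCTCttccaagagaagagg
Adgre1, chr9:2329218-2329253, plus strand: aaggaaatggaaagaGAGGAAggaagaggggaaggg
Csf1r, chr18:56834269-56834304, plus strand: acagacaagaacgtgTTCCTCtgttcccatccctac
Cd14, chr18:28611243-28611278, minus strand: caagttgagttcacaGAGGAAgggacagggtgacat
Mrc1, chr17:82157675-82157710, plus strand: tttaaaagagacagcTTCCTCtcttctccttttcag
The first letter of the match lay 27 bases before the gene start in Cd68, 35 in Mrc1, 46 in Lyz2, 95 in Csf1r, 105 in Cd14 and 207 in Adgre1. Csf1r, Mrc1 and Cd14 each held another match farther upstream.

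Spi1 encodes PU.1 itself. Its level was 4.32, 3.77, 4.37 and 4.52 CPM in control arteries 1 to 4 and 30.1, 48.6, 28.9 and 42.0 CPM in injured arteries 1 to 4. The controls were close together, and the lowest injured artery was 6.39 times the highest control. The mean rose from 4.24 ± 0.325 CPM to 37.4 ± 9.52 CPM (SD, n = 4 each), or 3.14 on the log2 scale with a standard error of 0.21 (adjusted p = 0.000138, edgeR).

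Csf1r encodes the receptor for colony-stimulating factor 1 and interleukin 34. It stood at 47.9, 57.8, 54.5 and 38.6 CPM in the controls and at 202, 240, 183 and 171 CPM in the injured arteries. All 4 injured arteries were at least 2.95 times the highest control, although the increase was smaller than that of Spi1. The means were 49.7 ± 8.48 and 199 ± 30.0 CPM (SD, n = 4 each), and the log2 fold change was 2.00 with a standard error of 0.17 (adjusted p = 0.000298, edgeR).

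Aif1, also called Iba1, is an actin-binding protein used to stain macrophages and microglia. Its controls measured 6.63, 6.81, 5.96 and 6.95 CPM and its injured arteries 37.6, 44.2, 38.9 and 33.0 CPM. Among the 10 genes it varied least between injured arteries, the highest being 1.34 times the lowest. The mean went from 6.59 ± 0.438 to 38.4 ± 4.61 CPM (SD, n = 4 each), a log2 difference of 2.54 with a standard error of 0.13 (adjusted p = 9e-05, edgeR).

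Adgre1 encodes the adhesion receptor F4/80, the classical surface marker of rodent tissue macrophages. Control values were 4.18, 7.87, 7.55 and 5.84 CPM, and injured values were 48.4, 47.4, 26.7 and 25.9 CPM. Injured arteries 1 and 2 were above injured arteries 3 and 4, as they were for Fcgr1a and Csf1r. Its mean rose from 6.36 ± 1.71 to 37.1 ± 12.5 CPM (SD, n = 4 each), and its log2 fold change was also 2.54, with a larger standard error of 0.30 (adjusted p = 0.00115, edgeR).

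Cd68 is a glycoprotein of late endosomes and lysosomes that is abundant in phagocytes. It was counted 38 to 48 times in each control library and 664 to 867 times in each injured one. This corresponds to 2.74, 3.20, 3.33 and 2.99 CPM in the controls and to 39.7, 62.9, 45.0 and 60.1 CPM after injury. The lowest injured artery was 11.9 times the highest control, so the groups were wide apart. The log2 fold change was 4.08 with a standard error of 0.19 (adjusted p = 6.7e-05, edgeR), from a mean of 3.06 ± 0.258 to one of 51.9 ± 11.3 CPM (SD, n = 4 each).

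Lyz2 encodes lysozyme, which breaks bacterial cell walls and is secreted by macrophages, monocytes and granulocytes. Control arteries held 40.8, 54.0, 79.6 and 77.4 CPM, and injured arteries held 945, 1755, 1112 and 1445 CPM. Injured artery 2 was the highest and injured artery 1 the lowest, as for Cd68. The mean rose from 63.0 ± 18.8 to 1315 ± 360 CPM (SD, n = 4 each), and its change of 4.38 on the log2 scale (standard error 0.32; adjusted p = 0.000169 from edgeR) was the largest of the 10.

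The rat genome carries a close copy of Lyz2, called Lyc2, so the counts of this pair depend on how shared reads were assigned. Their promoters show the likeness at the gene start, printed here for the 59 bases before it, with the 39 identical bases that reach the start in capitals (GRCr8).
Lyz2, chr7:54798012-54798070, minus strand: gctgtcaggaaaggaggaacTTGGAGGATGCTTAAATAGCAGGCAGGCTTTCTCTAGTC
Lyc2, chr7:54772950-54773008, plus strand: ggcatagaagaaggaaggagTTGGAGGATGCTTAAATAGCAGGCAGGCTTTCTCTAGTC
Farther upstream the sequences part, and 134 of the 300 positions of the window were equal without gaps. Lyc2 was given 2 to 8 counts in the control libraries and 44 to 117 in the injured ones, between 0.248% and 0.691% of the counts of the pair. On the log2 scale it changed by 3.93 with a standard error of 0.51 (adjusted p = 0.00158, edgeR). Since reads of the pair may have been split or dropped, the levels of Lyz2 and Lyc2 are uncertain.

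Cd14 binds lipopolysaccharide and hands it to the receptor TLR4. Control arteries 1 to 4 had 12.6, 14.8, 13.1 and 7.30 CPM of Cd14, and injured arteries 1 to 4 had 28.2, 47.2, 25.8 and 37.6 CPM. Control artery 4 was the lowest, and the groups did not overlap. Its rise of 1.54 on the log2 scale (standard error 0.27; adjusted p = 0.0066 from edgeR) came to 1.35 without control artery 4, where Cd14 was still called.

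Fcgr1a encodes the high-affinity receptor for immunoglobulin G. In the controls it measured 2.52, 3.69, 2.29 and 2.22 CPM, and after injury 20.5, 26.4, 15.3 and 15.2 CPM. Every injured artery was at least 4.12 times the highest control. Fcgr1a rose from 2.68 ± 0.685 to 19.4 ± 5.32 CPM (SD, n = 4 each), or by 2.85 on the log2 scale with a standard error of 0.27 (adjusted p = 0.00043, edgeR).

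Mrc1 (CD206) is a mannose receptor and Cd163 takes up complexes of hemoglobin and haptoglobin. Both are known from resident and perivascular macrophages. Mrc1 had 25.1, 43.8, 48.0 and 34.9 CPM in the controls and 91.3, 76.5, 64.6 and 87.0 CPM in the injured arteries. The groups did not overlap, but the lowest injured artery was only 1.35 times the highest control. Its log2 fold change was 1.07 with a standard error of 0.21 (adjusted p = 0.0109, edgeR), close to the limit of a 2-fold change. Without control artery 1 it was 0.91, and Mrc1 was no longer called.

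Cd163 did not pass the test. Its levels were 14.8, 31.3, 34.4 and 24.8 CPM in control arteries 1 to 4 and 39.8, 19.9, 21.3 and 31.6 CPM in injured arteries 1 to 4. Injured artery 1 was the highest of all 8 and control artery 1 the lowest, while the other arteries were mixed. The means of 26.4 ± 8.66 and 28.1 ± 9.38 CPM (SD, n = 4 each) differed by 0.09 on the log2 scale with a standard error of 0.31 (adjusted p = 0.865, edgeR), and an exact permutation test over the 70 relabellings gave p = 0.771 (two-sided). The fold change was -0.11 without control artery 1 and -0.12 without injured artery 1 on the log2 scale, so its sign rests on these arteries.

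The injured arteries did not rank alike for all members. Injured artery 2 was the highest for 7 genes (Lyz2, Cd68, Spi1, Fcgr1a, Aif1, Csf1r and Cd14), whereas injured artery 1 was the highest for Adgre1, Mrc1 and Cd163. The lowest was injured artery 4 for 4 genes, injured artery 3 for 3, injured artery 1 for 2 and injured artery 2 for 1, namely Cd163.

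To find out whether the members changed by unequal amounts, the reads of each were divided by the reads of Cd68 in the same artery. Such a ratio needs no scaling between libraries, but it counts reads and not molecules, since transcript lengths differ. Relative to Cd68, 8 of the 9 other members were lower in the injured arteries, and only for Lyz2 did the groups overlap. Each of the 8 had an exact two-sided permutation p of 0.0286, the smallest that 4 against 4 allows, and an adjusted p of 0.0357 over the family of 10 ratios tested by this permutation. Cd68 had the second largest log2 fold change of the 10 (4.08, after 4.38 for Lyz2). The lower ratios therefore largely restate the fold changes above, and they concern differences from Cd68 only.

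The shift was largest for Cd163. There were 5.36, 9.68, 10.3 and 8.22 Cd163 reads per Cd68 read in control arteries 1 to 4, but 1.00, 0.316, 0.473 and 0.525 in injured arteries 1 to 4. The mean log2 ratio dropped by 3.94, or 15.3-fold. Mrc1 followed with 9.08 to 14.3 reads per Cd68 read in the controls and 1.22 to 2.30 after injury, a 7.69-fold lower ratio. Per Cd68 read, the hemoglobin scavenger and the mannose receptor were thus scarcer after injury, although Mrc1 itself rose.

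The ratio of Cd14 to Cd68 was 5.67-fold lower, that of Csf1r 4.11-fold, that of Adgre1 2.88-fold and that of Aif1 2.85-fold. Fcgr1a and Spi1 shifted less, by 2.33-fold and 1.93-fold. For Lyz2 no difference from Cd68 passed the test, with 14.7 to 25.6 reads per Cd68 read in the controls and 23.8 to 27.9 after injury, a log2 difference of 0.35 (exact permutation p = 0.2). When a count of 5 in place of 0.5 was added to each gene, this difference was 0.48 with p = 0.0286 in the exact permutation test, so the test of Lyz2 depended on that choice.

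Cd68 was also set against Ptprc, which encodes CD45 and is carried by nearly all leukocytes. Ptprc rose from 7.03 ± 1.71 to 72.1 ± 18.9 CPM (SD, n = 4 each), 3.36 on the log2 scale (adjusted p = 0.000208, edgeR). There were 0.377 to 0.546 Cd68 reads per Ptprc read in the controls and 0.485, 0.681, 0.906 and 0.935 in injured arteries 1 to 4. Injured artery 1 lay within the range of the controls and the other 3 lay above it. The log2 difference of 0.70 did not pass the test, with p = 0.0571 in the exact permutation test and 0.0635 after adjustment.

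**Figure D2:**
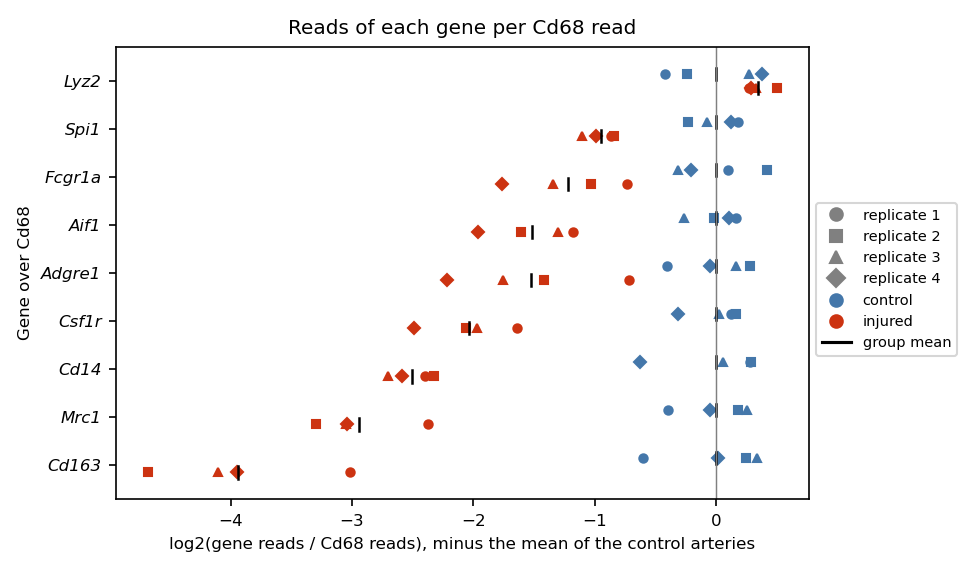
Reads of each member per Cd68 read, as log2 ratios minus the mean of the 4 control arteries (x axis), for the 4 control (blue) and 4 injured (red) arteries; each point is an artery, shapes give replicate numbers and the black ticks are group means. For 8 genes the mean of the injured arteries lies below the controls, by 0.95 for Spi1 to 3.94 for Cd163, whereas for Lyz2 it lies 0.35 above and the groups overlap.

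The partners of each member were then read from 11 lists holding 110 other genes, 99 of them tested. Across these lists 48 partner genes were called. Count and median describe each list, and the 8.27% of all genes called higher stands beside them.

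Of the tested genes around Csf1r and the colony-stimulating factors, 4 of 9 rose and none fell. The ligands of Csf1r were not called, with Csf1 at 44.7 to 104 CPM in the controls and 95.8 to 109 CPM after injury (log2 fold change 0.31; adjusted p = 0.422 from edgeR) and Il34 at 5.82 to 23.8 and 14.1 to 29.2 CPM (0.89 on the log2 scale; adjusted p = 0.237 from edgeR). Without control artery 4, the library with the highest sum of sympathetic neuron markers, Il34 passed the test with 1.52 (adjusted p = 0.00572, edgeR). Receptors of other colony-stimulating factors rose, with log2 fold changes of 4.05 for Csf3r, the granulocyte colony-stimulating factor receptor, 2.40 for Csf2rb and 2.12 for Csf2ra, the chains of the receptor for granulocyte-macrophage colony-stimulating factor. Tyrobp (DAP12), an adaptor of myeloid receptors, rose from 4.88 ± 1.35 to 45.0 ± 4.99 CPM (SD, n = 4 each).

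Next to Cd14, 2 of 10 tested genes of the TLR4 complex were called, both upward, against 8.27% of all genes called higher. The called genes were Cd180, a TLR4-like receptor that lacks the signaling domain (log2 fold change 3.21), and Lbp, which loads lipopolysaccharide onto CD14 (1.68). Every injured artery lay above every control artery for 5 of the 10, against 14.2% of all genes tested. The list summed to 95.8 to 188 CPM in the controls and 281 to 467 CPM after injury. With a single artery omitted, Lbp lost its call in 4 of 8 fits (without control artery 2 and without injured artery 1, 2 or 4), which left 1 gene of the list called. Tlr4 was not called because its log2 fold change of 0.96 stayed under a 2-fold change (adjusted p = 0.0343, edgeR), and it was called only without injured artery 3, with 1.13. Its co-receptor Ly96 (MD-2) had 1.25 on the log2 scale and missed the threshold (adjusted p = 0.105, edgeR). Irak1 was listed at 0 in all 8 libraries.

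Of the Fc receptor list around Fcgr1a, 8 of 10 genes rose, with none lower and a median log2 fold change of 2.99. Fcer1g, the common signaling chain that Fcgr1a needs, went from 8.79, 8.20, 7.90 and 7.71 CPM to 71.2, 87.9, 61.4 and 74.9 CPM, a log2 fold change of 3.18 (standard error 0.14). The low-affinity receptor Fcgr3a had 2 to 6 counts in each control library and a log2 fold change of 5.50 (standard error 0.51). The inhibitory receptor Fcgr2b followed with 3.83 (standard error 0.82), but lost its call in 3 of the 8 fits without 1 artery. Fcgrt, the neonatal Fc receptor that endothelium also expresses, had a log2 fold change of 0.55 and was not called.

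Of the hemoglobin and iron genes that bear on Cd163, 4 of 10 rose. Hmox1, which degrades heme, went from 10.7 ± 2.49 to 38.2 ± 7.64 CPM (SD, n = 4 each), a log2 fold change of 1.84. The largest rise was that of Slc11a1, an iron transporter of the phagosome, with 5.12 (standard error 0.37). The heme carrier Hpx had 2.09 and Hp, which encodes the haptoglobin that Cd163 binds, had 1.30, both at levels under 5 CPM in every artery. Hp was called in only 1 of the 8 fits without 1 artery. Cd163 overlapped between the groups, while Hmox1 passed the test.

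Among transcription factors of the lineage other than Spi1, 6 of 11 rose and the median was 1.11. Irf5, which drives inflammatory genes, rose by 2.80 on the log2 scale, Runx1 by 2.28 and Tfec by 2.27. Irf8, a partner of PU.1, went from 14.9 ± 3.18 to 66.6 ± 16.5 CPM (SD, n = 4 each; log2 fold change 2.16). Tfec lost its call without injured artery 4. Cebpa and Cebpb were not called, with log2 fold changes of 0.78 and -0.28.

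Of 12 tested uptake receptors that work alongside Mrc1, 7 rose, led by the C-type lectins Clec7a (dectin-1, a receptor for fungal glucans) with a log2 fold change of 4.87, Clec4a1 with 3.63, Clec4a3 with 3.51 and Clec5a with 3.15. The scavenger receptor Msr1 (28.6 to 92.0 CPM in the controls and 21.1 to 55.7 CPM after injury) and Cd36 were not called. Marco and Vsig4 were listed at 0 in all libraries.

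Most other lysosomal genes were not called. Of the 9 tested beside Cd68, 2 rose, Gpnmb (log2 fold change 3.88) and the protease Ctss (2.46), and the median was 0.26. Every injured artery lay above every control artery for 5 of the 9, against 14.2% of all genes tested. The list summed to 2314 to 2581 CPM in the controls and 3058 to 4104 CPM after injury, without overlap. Lamp1, a membrane protein of lysosomes in all cells, stood at 591 to 733 CPM in the controls and 540 to 566 CPM after injury, and it was not called.

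Genes of resident arterial macrophages, in whose company Mrc1 and Cd163 are often found, gave 1 rise and 1 fall among 7 tested. Folr2, a folate receptor, rose by 2.22 on the log2 scale. Timd4, a receptor for phosphatidylserine on dying cells, fell from 191, 170, 122 and 71.4 CPM to 61.4, 38.6, 24.1 and 39.4 CPM, a log2 change of -1.76 with a standard error of 0.37 (adjusted p = 0.0138, edgeR). Its call was lost without injured artery 2 and without injured artery 4, which left 1 called gene in the list. In the controls Timd4 (71.4 to 191 CPM) stood above Csf1r (38.6 to 57.8 CPM). Over control arteries 1 to 4 it ranked as the summed smooth muscle markers did, and both were lower after injury. Which cells held the Timd4 mRNA was not tested. Lyve1 and F13a1 were not called, with log2 fold changes of 0.22 and -0.14. The median of this list was 0.22, against 1.93 for the monocyte list, but the lists were not tested against each other. The resident median rests on 7 of 10 listed genes, Timd4 among them, and the monocyte median on 8 of 12. Cbr2 and Mgl2 of the resident list were not found by symbol, and Cd209b was listed at 0 in all libraries.

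In the monocyte list 5 of 8 tested genes rose, among them Hp, which was called in only 1 of the 8 fits without 1 artery. The list summed to 196 to 1001 CPM in the controls and an overlapping 266 to 629 CPM after injury, with control arteries 1 and 2 above every injured artery. Ccr2, a listed monocyte gene, was not found by symbol. Cx3cr1, the fractalkine receptor, went from 2.48 ± 1.21 to 38.3 ± 8.47 CPM (SD, n = 4 each; log2 fold change 3.94), and the integrin chain Itgam (CD11b) rose by 3.89. Spn (CD43) had a log2 fold change of 2.56, from 4.10 to 7.22 CPM in the controls to 23.6 to 37.9 CPM after injury. Cx3cr1 and Spn were a small part of the list's sum in the controls, so that sum does not show their course. Which genes held most of it is not reported here. Genes of lipid-associated macrophages gave 5 rises among 10, with Trem2, a lipid-sensing receptor that signals through Tyrobp, at 3.37 next to Gpnmb. Apoe (2.41) and Spp1 (1.55) lost their calls in 7 and 5 of the 8 fits without 1 artery, and the count of this list came to 2 without injured artery 4 and to 3 without control artery 2, control artery 3 or injured artery 2. In the list plotted as leukocyte actin, not all of whose genes encode actin-binding proteins, 5 of 7 rose, led by Vav1 (3.77), Lcp1 (3.36), Rac2 (3.30) and Evi2a (2.91).

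**Figure D3:**
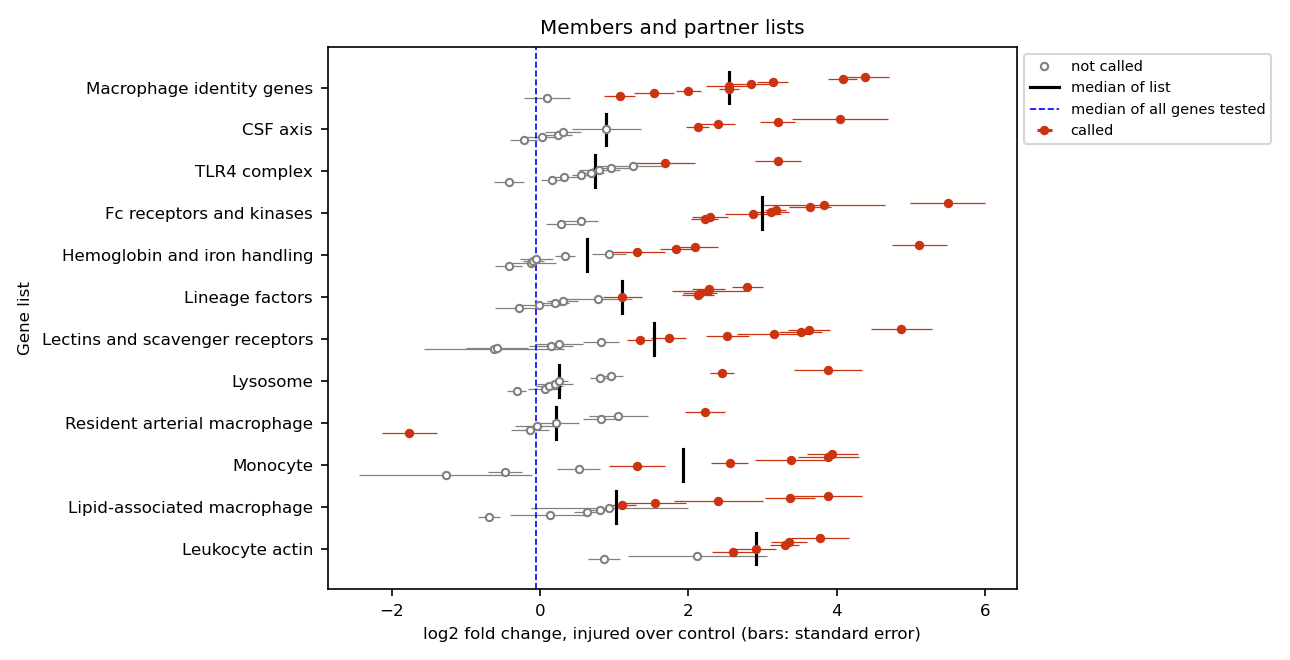
Log2 fold change (injured over control, x axis) of each tested gene in the member list and the 11 partner lists; filled red points were called, open grey points were not, horizontal bars are standard errors, black ticks are list medians and the dashed line is the median of all genes tested (-0.06). The Fc receptor list has a median of 2.99 and the resident arterial list one of 0.22, with Timd4 as the only called gene to the left of 0.

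The genes with the course most like the members were looked up over all 14359 genes. For each gene, log2(CPM + 0.5) was centred on the gene's own mean over the 8 arteries and compared with the median course of the members by the root mean square distance. The 10 nearest genes that are no members, at distances of 0.100 to 0.152, were Gpr132, C5ar1, Spn, Ptpn7, Arhgap9, Ctss, Ikzf1, Cd83, Lyn and Tlr2. Gpr132 had 0.07 to 0.25 CPM in the controls, below the added 0.5, which flattens its course. Its first rank depends on that choice, since its log2 fold change in edgeR was 4.25. C5ar1, the receptor for the complement fragment C5a, had 4.03 to 4.92 CPM in the controls and 20.9 to 32.5 CPM after injury, and Tlr2, a receptor for bacterial lipoproteins, had 2.99 to 3.69 and 13.1 to 21.2 CPM. Among the members, Fcgr1a, Aif1 and Csf1r were nearest to the shared course at ranks 17, 21 and 24 of all genes, whereas Cd68 was at rank 1268, Lyz2 at 3890 and Cd163 at 6331. Lyz2 and Cd68 rose more than the median member and Cd163 less.

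**Figure D4:**
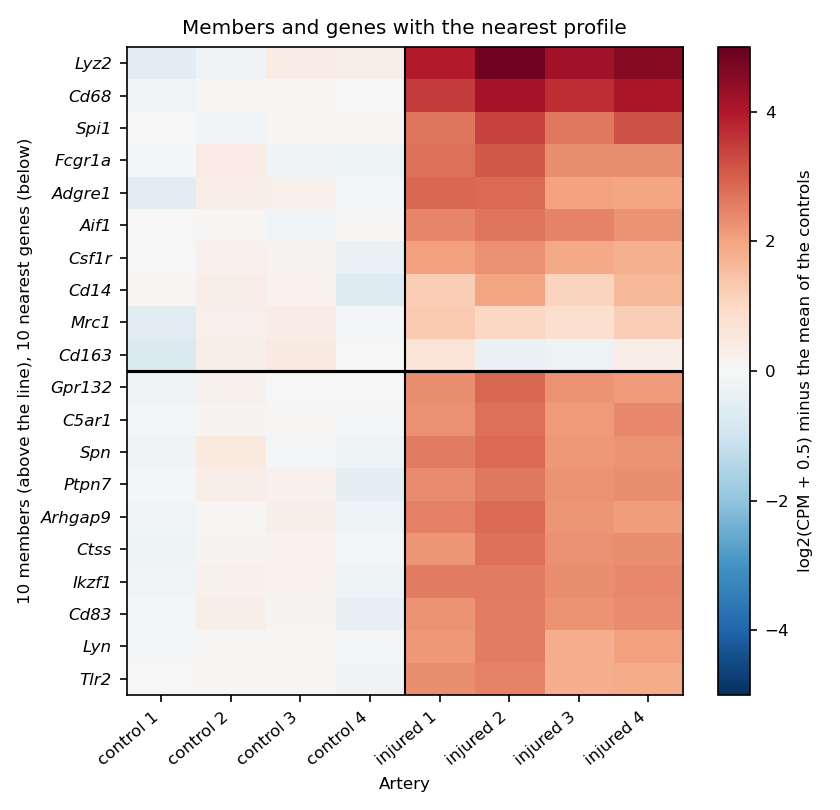
Log2(CPM + 0.5) minus the mean of the 4 controls (color scale) in each of the 8 arteries (columns) for the 10 members (rows above the line) and the 10 genes with the nearest course (rows below it). The nearest genes have log2 fold changes of 2.22 (Lyn) to 4.25 (Gpr132, which had 1 to 3 counts in each control), and Cd163 shows no common shift.

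Several members are not particular to macrophages, so markers of other cells were read in the same arteries. Calls in these marker lists were not examined with single arteries left out, except for genes also named above. Of 7 tested leukocyte genes 5 rose, and the summed level of the list was 119 to 175 CPM in the controls and 449 to 581 CPM after injury. Of 10 neutrophil genes only 3 had enough reads for the test, and 2 of these rose, S100a9 (log2 fold change 2.55) and Csf3r. S100a9 lay close to the limit, with a standard error of 0.70 (adjusted p = 0.0400, edgeR). The list summed to 2.81 to 6.81 CPM in the controls and 9.25 to 26.3 CPM after injury, with Elane at 0 to 2 counts and Ltf at 0 to 5 counts per library. Lyz2 is also made by neutrophils, and the part of these cells in its rise was not tested.

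T cell genes summed to 19.9 to 42.7 CPM in the controls and 130 to 170 CPM after injury. Of the 8 tested, 2 rose, Cd2 with a log2 fold change of 3.03 and Cd4 with 2.48, and Cd4 held most of the sum, with 117 to 145 CPM in the injured arteries. Rat macrophages carry CD4 too. The CD3 chains of the T cell receptor complex, Cd3d, Cd3e and Cd3g, were not called, with log2 fold changes of 1.44 to 1.95. The median of the list was 1.70. For 5 of the 8 tested genes every injured artery lay above every control artery, as for 14.2% of all genes tested. B cell genes summed to at most 4.91 CPM in any artery, and Cd79a was listed at 0.

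Of 7 dendritic cell genes 5 rose, among them Cd83 (log2 fold change 2.62), Batf3 (2.83) and Ccr7 (3.11). The list summed to 18.2 to 26.6 CPM in the controls and 44.6 to 48.5 CPM after injury. Of the microglia genes, which arterial macrophages share in part, 4 of 7 rose, namely P2ry13 (2.17), Tmem119 (1.66), P2ry12 (1.56) and Siglech (0 to 2 counts per control library), and Sall1 was not called (-1.11). Mast cell genes summed to 9.65 to 16.8 CPM in the controls and 15.3 to 28.3 CPM after injury, and red cell genes to 94.5 to 457 and 199 to 502 CPM, both overlapping between the groups.

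Of 8 smooth muscle genes 5 fell, among them Myh11 by 1.72 and Cnn1 by 1.69 on the log2 scale. Endothelial genes gave 2 rises and 1 fall among 8 tested, and fibroblast genes gave 1 rise and 2 falls among 7. Adipocyte genes summed to 72.8 to 755 CPM in the controls and 87.0 to 289 CPM after injury, and Schwann cell genes to 309 to 1204 and 491 to 1673 CPM, both overlapping between the groups. Skeletal muscle, which is not part of the arterial wall, had 6 of 8 genes higher, with a summed level of 84.2 to 253 CPM in the controls and an overlapping 229 to 910 CPM in the injured arteries. The part of these values in the rise of the macrophage identity genes was not tested.

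**Figure D5:**
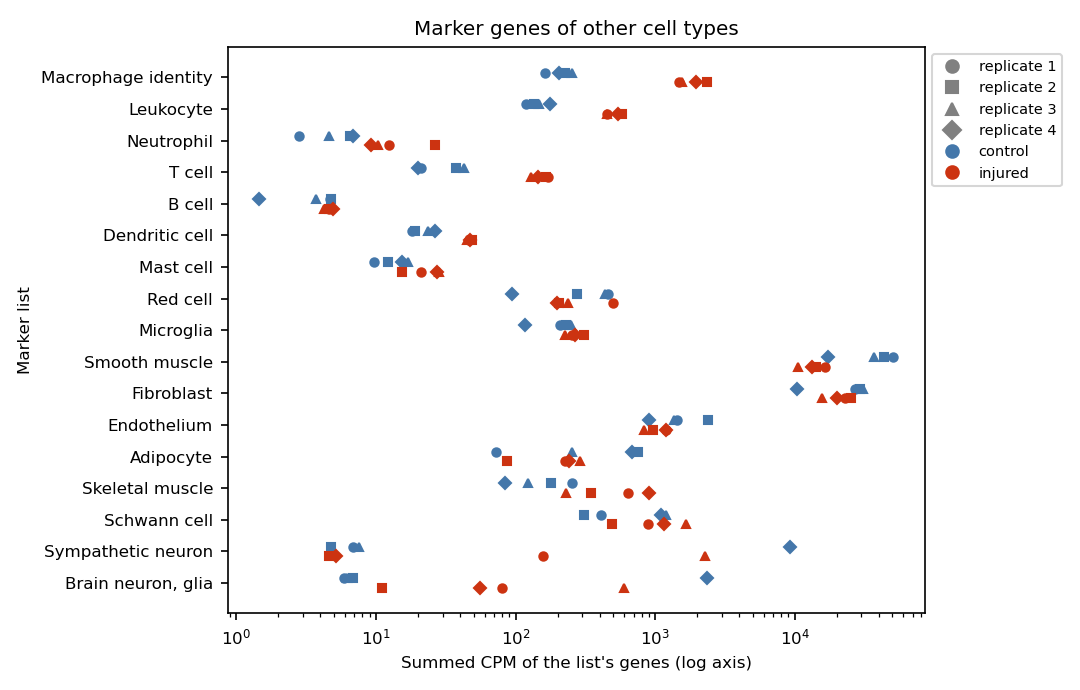
Summed CPM (log axis) of the macrophage identity genes and of 16 marker lists of other cells in each of the 4 control (blue) and 4 injured (red) arteries, with shapes for replicate numbers. The macrophage identity genes sum to 162 to 253 CPM in the controls and 1483 to 2368 CPM after injury, and the sympathetic neuron list reaches 9235 CPM in control artery 4.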

How the data were processed

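mRNA was sequenced from 4 injured and 4 control carotid arteries. The authors deposited a table of raw counts per gene symbol, without normalization. The submitters' processing notes name the aligner HISAT2 (version 2.0.4); the counting tool, its strand setting and the genome build are not given in the sources used here, so overlapping and antisense genes are uncertain. Groups came from the sample labels. Counts were scaled with TMM factors, genes were filtered with filterByExpr, and groups were compared with the quasi-likelihood test (robust) of edgeR 4.0.16 in R 4.3.3, over all 14359 genes kept, with Benjamini-Hochberg adjustment. A call needed a false discovery rate under 0.05 and a fold change above 2. The study used DESeq with these limits, and DESeq2 1.42.0 was run as an alternative. CPM in the text carry the TMM factors. The ratios of 2 genes used log2 of counts plus 0.5 and exact permutation over 70 relabellings. The scripts were tested on simulated counts. Depth was 11459632 to 16658089 counts, and 3 counts, the smallest level taken as detectable, correspond to 0.180 to 0.262 CPM; this floor covers counting error only.

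The members and gene lists were chosen with earlier results of these data known. Besides the 10 members, the text names up to 4 called genes per list by size of change, partners that bind or signal with a member, and the 10 genes of nearest course; some other members of short lists were named after their values were seen, and a few genes under this rule are not reported here. Chromosomes and promoters came from RefSeq tables of GRCr8. Alternatives covered other normalizations, filters, DESeq2, a replicate block, other call rules and leaving out each artery.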

Additional observations from a re-analysis of the deposited data

How the results depend on the processing

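Each member had 18 alternative fits. Lyz2, Cd68, Spi1, Fcgr1a, Adgre1, Aif1 and Csf1r were called in all 18, Cd14 in 17, Mrc1 in 15 and Cd163 in 0, where its log2 fold change ran from -0.12 to 0.27. Leaving out 1 artery at a time gave 8 or 9 members called and 1160 to 2317 genes called in all (the most without control artery 4), against 1565, and moved Cd163 between -0.12 and 0.25, with -0.11 without control artery 1 and -0.12 without injured artery 1. A test against a fold change of 2 left 659 genes, without Cd14 (adjusted p = 0.166, edgeR) and Mrc1 (adjusted p = 1), a minimum of 10 counts in every sample left 1012, and the false discovery rate alone gave 2463. Fewer genes enter the stricter filter. The test against a fold change of 2 is a stricter rule, and the false discovery rate alone drops the fold limit. The cause of the other shifts was not tested. Scaling by library totals alone moved the median log2 fold change of all genes by 0.18. With a count of 5 added, the ratio of Lyz2 to Cd68 was 0.48 and passed the exact permutation test.

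With the replicate number as a block, Mrc1 was not called (1.10 on the log2 scale; adjusted p = 0.0571 from edgeR), the other 8 called members stayed called, and 1222 genes were called in all. Deviations of same-numbered arteries correlated at -0.61 to 0.52, and 1 of 4 controls and 2 of 4 injured arteries correlated best with their own number. The highest correlation, 0.82, joined control artery 4 and injured artery 3, the libraries with the highest sums of sympathetic neuron markers. Such correlations cannot show whether the numbers mark animals. The paper calls the right artery a self-control, but the labels give no pairs, so the block stayed an alternative. In a sign-flip test of the ratios the 4 differences allow no p under 0.125. DESeq2 called 2151 genes and the same 9 members. The 8 arteries and counts of 32 to 65 per control library for Fcgr1a, Cd68 and Spi1 limit the precision of their folds.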

Other observations

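Genes of chromosome X were almost all listed at 0, which bears on which macrophage genes can be read in these arteries at all. Of 606 protein-coding genes placed on X by RefSeq (GRCr8) and found by symbol, 592 (97.7%) had 0 counts in all 8 libraries, whereas on single autosomes 4.61% to 15.1% did. The genes at 0 include Pgk1 and Hprt1, enzymes that every cell uses, and the actin-binding proteins Flna and Msn. Among them are also the phagocyte oxidase subunit Cybb, the kinase Btk, the RNA sensor Tlr7 and the complement regulator Cfp. Of the lists used here, 8 genes lie on X, among them Irak1, Vsig4, Lamp2, Was and Gpr34, and all 8 were at 0, so these zeros say nothing about expression. None of the 10 macrophage identity genes lies on X. The cause was not tested.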
